A study of Mus musculus with 21 samples.

Results

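The glutathione and NRF2 target genes described here are 10 listed mouse genes, Gstp1, Gstp2, Gstp3, Gstk1, Nqo1, Gclc, Gclm, Hmox1, Txnrd1 and Srxn1, matched by symbol to the Ensembl identifiers of the files. Of the 10 genes, 9 were among the 9657 genes measured, and Nqo1 was not analysed here. Gstp1 and Gstp2 read the same and were treated as one, which leaves 8 separate signals. The cells were primary mouse hepatocytes, liver cells taken into culture, of wild-type (WT) genotype in every group. They received an RNAi agent directed against Ttr, the transthyretin gene, or PBS without an agent. The 6 treated groups were TTR-1236 at 2 µM and at 0.2 µM, TTR-1186 at 2 µM and at 0.2 µM, and Reference 4 at 2 µM and at 0.2 µM. The remaining group was PBS, every group held 3 libraries, and RNA was taken on Day 1. Whether libraries of 1 group stem from different animals or wells is not stated in the labels, so the p-values below speak of library-to-library spread alone. Strain, sex, age, culture conditions and the way the agents were delivered are likewise not stated.

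NRF2, encoded by Nfe2l2, is a transcription factor that turns on detoxifying and antioxidant genes when cells meet electrophiles or oxidants. KEAP1 holds it back by directing it to degradation, and BACH1 competes with it for the same DNA element, the antioxidant response element, which NRF2 binds together with a small MAF protein. Its targets make glutathione, attach it to reactive molecules, and keep thioredoxin and peroxiredoxins reduced. Hepatocytes hold a large pool of glutathione and use it to clear drugs and bile-borne metabolites.

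The assay was QuantSeq, a sequencing method for the 3′ ends of polyadenylated RNA, and levels are in CPM, reads per 1000000 in each library. The libraries held 14158740 to 37410773 reads over the genes in the files. Ttr lay between 3.19 and 27.1 CPM in the 18 treated libraries, against 2272, 2168 and 2336 CPM in the PBS libraries, so Ttr separated treated from PBS libraries the way the labels do. Hepatocyte markers summed to between 13915 and 22044 CPM over 10 measured of 11 listed. Of the markers of other liver cells, 2 of 12 for Kupffer cells and macrophages (Csf1r and Cd68) were measured, with a sum of 77.2 to 184 CPM, and 2 of 8 for endothelial cells, 2 of 10 for stellate cells, 2 of 6 for cholangiocytes and 0 of 4 for red blood cells; the other listed markers were not analysed here. PBS replicate 3 and TTR-1186 at 2 µM replicate 2 stood apart from their replicates: the chi-square per degree of freedom between libraries was 183.7 and 175.9 for the first, against 40.1 for the other PBS pair, and 134.8 and 131.2 for the second, against 49.6 for the other pair. TTR-1186 at 2 µM replicate 2 also had 109 genes at 0, where the other libraries had 0 to 29. The words rose and fell are kept for genes with a Benjamini-Hochberg adjusted p under 0.05 over all 9657 genes in limma on log2(CPM + 1). Log2 fold changes are on that scale and have a standard error (SE). In bulk RNA, fewer cells of a type and less RNA per cell cannot be told apart.

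Gstp1, Gstp2 and Gstp3 encode pi-class glutathione S-transferases, cytosolic enzymes that join glutathione to electrophiles. The 3 genes lie side by side on the minus strand of chromosome 19 of GRCm38, the assembly of mm10. Gstp1 (ENSMUSG00000060803) spans chr19:4035407-4037985, Gstp2 (ENSMUSG00000038155) spans chr19:4040285-4046023 and Gstp3 (ENSMUSG00000058216) spans chr19:4057477-4059569. The last 60 coding bases of each transcript, stop codon included, are shown from GENCODE vM21 because a 3′ method reads near them, with capitals in Gstp3 marking the 25 bases that differ from Gstp1.
Gstp1: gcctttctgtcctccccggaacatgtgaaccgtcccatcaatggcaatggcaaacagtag
Gstp2: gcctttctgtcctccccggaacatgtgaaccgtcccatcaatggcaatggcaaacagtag
Gstp3: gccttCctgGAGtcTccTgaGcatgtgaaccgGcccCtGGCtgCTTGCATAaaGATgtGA
The stretches of Gstp1 and Gstp2 are identical, and so are the last 300 bases of the transcripts Gstp1-201 and Gstp2-201, with 251 of 251 windows of 50 bases shared there. Over their 633 coding bases the pair differ at 12 positions (98.1% identity). Gstp3-202 has 73.0% coding identity with Gstp1-201 and shares 0 of 251 such windows with it. The deposited levels follow the sequences: Gstp1 over Gstp2 was 1.00 to 1.01 in all 21 libraries, a difference of 58 to 1907 reads, so the 2 values are one measurement of reads that could belong to either gene. Gstp3 stood at 0.303% to 1.04% of the Gstp1 level.

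The other members are single genes. Gstk1 (ENSMUSG00000029864, chr6:42245935-42250447, plus strand) encodes a mitochondrial and peroxisomal glutathione transferase. Gclc (ENSMUSG00000032350, chr9:77754535-77794485, plus strand) and Gclm (ENSMUSG00000028124, chr3:122245557-122270732, plus strand) encode the catalytic and modifier subunits of glutamate-cysteine ligase, the first and rate-limiting enzyme of glutathione synthesis. Txnrd1 (ENSMUSG00000020250, chr10:82833951-82897712, plus strand) encodes cytosolic thioredoxin reductase, Srxn1 (ENSMUSG00000032802, chr2:152105516-152111376, plus strand) encodes sulfiredoxin, which repairs overoxidised peroxiredoxins, and Hmox1 (ENSMUSG00000005413, chr8:75093621-75100589, plus strand) encodes heme oxygenase 1, which breaks down heme. Gclm overlaps an antisense transcript, Gm17494, and a processed pseudogene, Gm6061, both in the files. Txnrd1 overlaps Eid3 on the same strand and Gm38560 and Gm47073 on the other strand, none of them among the genes measured. No source used here gives the strand setting of the authors' counting. Reads of Gclm and Txnrd1 may therefore be shared with these genes, and their levels are uncertain to that extent.

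The antioxidant response element has the core TGACNNNGC, and a related motif that also holds an AP-1 site is TGANTCAGC. Both were searched on both strands in 300 bases around RefSeq gene starts (GRCm38.p6), from 250 before to 50 after. TGACNNNGC was in 12.4% and TGANTCAGC in 1.19% of 32851 promoters. Counted by gene, with a match in any promoter, they were in 14.0% and 1.37% of 27025 genes. Of the 10 listed genes 8 had an entry, with 10 promoters, and 5 genes held a match to either motif. The share of all genes with either motif is not given here, so this count is not set against genes at large. Gstp1 and Gstp2, whose promoters are alike, are counted separately in it. TGANTCAGC was in Gstp1, Gstp2 and Srxn1, and TGACNNNGC was in Gclm, Srxn1 and 1 of 3 promoters of Txnrd1. Gstp3, Gstk1 and Nqo1 held neither. Shown are the 250 bases before the start of Gstp1 and Gstp2, the highest members, of Srxn1, which shares their motif, and of Gclm, 1 of the 2 members that fell with dose; capitals mark the match.
Gstp1 (chr19:4037913-4038162, minus strand): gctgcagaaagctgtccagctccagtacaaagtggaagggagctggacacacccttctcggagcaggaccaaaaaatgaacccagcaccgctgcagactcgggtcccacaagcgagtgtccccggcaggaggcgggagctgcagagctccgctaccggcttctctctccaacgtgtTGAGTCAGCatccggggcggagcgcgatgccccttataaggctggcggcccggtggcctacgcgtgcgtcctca
Gstp2 (chr19:4042222-4042471, minus strand): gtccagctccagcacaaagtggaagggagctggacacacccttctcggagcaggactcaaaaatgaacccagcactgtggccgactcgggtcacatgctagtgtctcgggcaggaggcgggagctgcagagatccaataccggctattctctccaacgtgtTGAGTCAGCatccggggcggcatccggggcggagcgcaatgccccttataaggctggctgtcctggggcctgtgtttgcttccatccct
Srxn1 (chr2:152105274-152105523, plus strand): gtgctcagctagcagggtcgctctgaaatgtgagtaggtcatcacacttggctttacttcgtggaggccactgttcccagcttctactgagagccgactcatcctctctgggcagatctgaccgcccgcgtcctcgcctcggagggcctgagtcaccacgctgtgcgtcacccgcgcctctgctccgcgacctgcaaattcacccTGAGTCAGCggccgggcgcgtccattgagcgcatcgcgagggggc
Gclm (chr3:122245307-122245556, plus strand): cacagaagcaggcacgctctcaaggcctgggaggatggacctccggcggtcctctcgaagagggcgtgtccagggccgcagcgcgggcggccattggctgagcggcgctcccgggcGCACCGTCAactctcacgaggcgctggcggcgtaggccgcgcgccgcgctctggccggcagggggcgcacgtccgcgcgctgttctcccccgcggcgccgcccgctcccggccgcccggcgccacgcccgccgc
The match lies 74 bases before the RefSeq start in Gstp1, 89 in Gstp2 and 45 in Srxn1, each time as TGAGTCAGC. In Gclm the motif is on the other strand and begins 134 bases before the start. The TGACNNNGC match of Srxn1 is also on the other strand and lies after the start, outside the bases shown. Over 265 aligned positions the Gstp1 and Gstp2 promoters were 78.1% identical. A match of letters is a description and says nothing of binding in these cells.

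Every measured member had reads in all 21 libraries, the fewest being 78 reads of Gstk1 in 1 library. Gstp1 averaged 4501 CPM over the libraries, above 99.8% of the genes measured. Srxn1 averaged 195 CPM, Gclc 178, Txnrd1 176, Hmox1 152 and Gclm 111 CPM. Gstp3 averaged 32.0 CPM and Gstk1 15.3 CPM. Because reads come from transcript ends, these CPM are compared between genes with no division by length. The ratio of the highest to the lowest library was 1.48 for Gstp1, 1.96 for Srxn1 and 2.03 for Hmox1, and reached 3.71 for Txnrd1, 4.24 for Gstp3 and 4.43 for Gstk1.

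**Figure D1:**
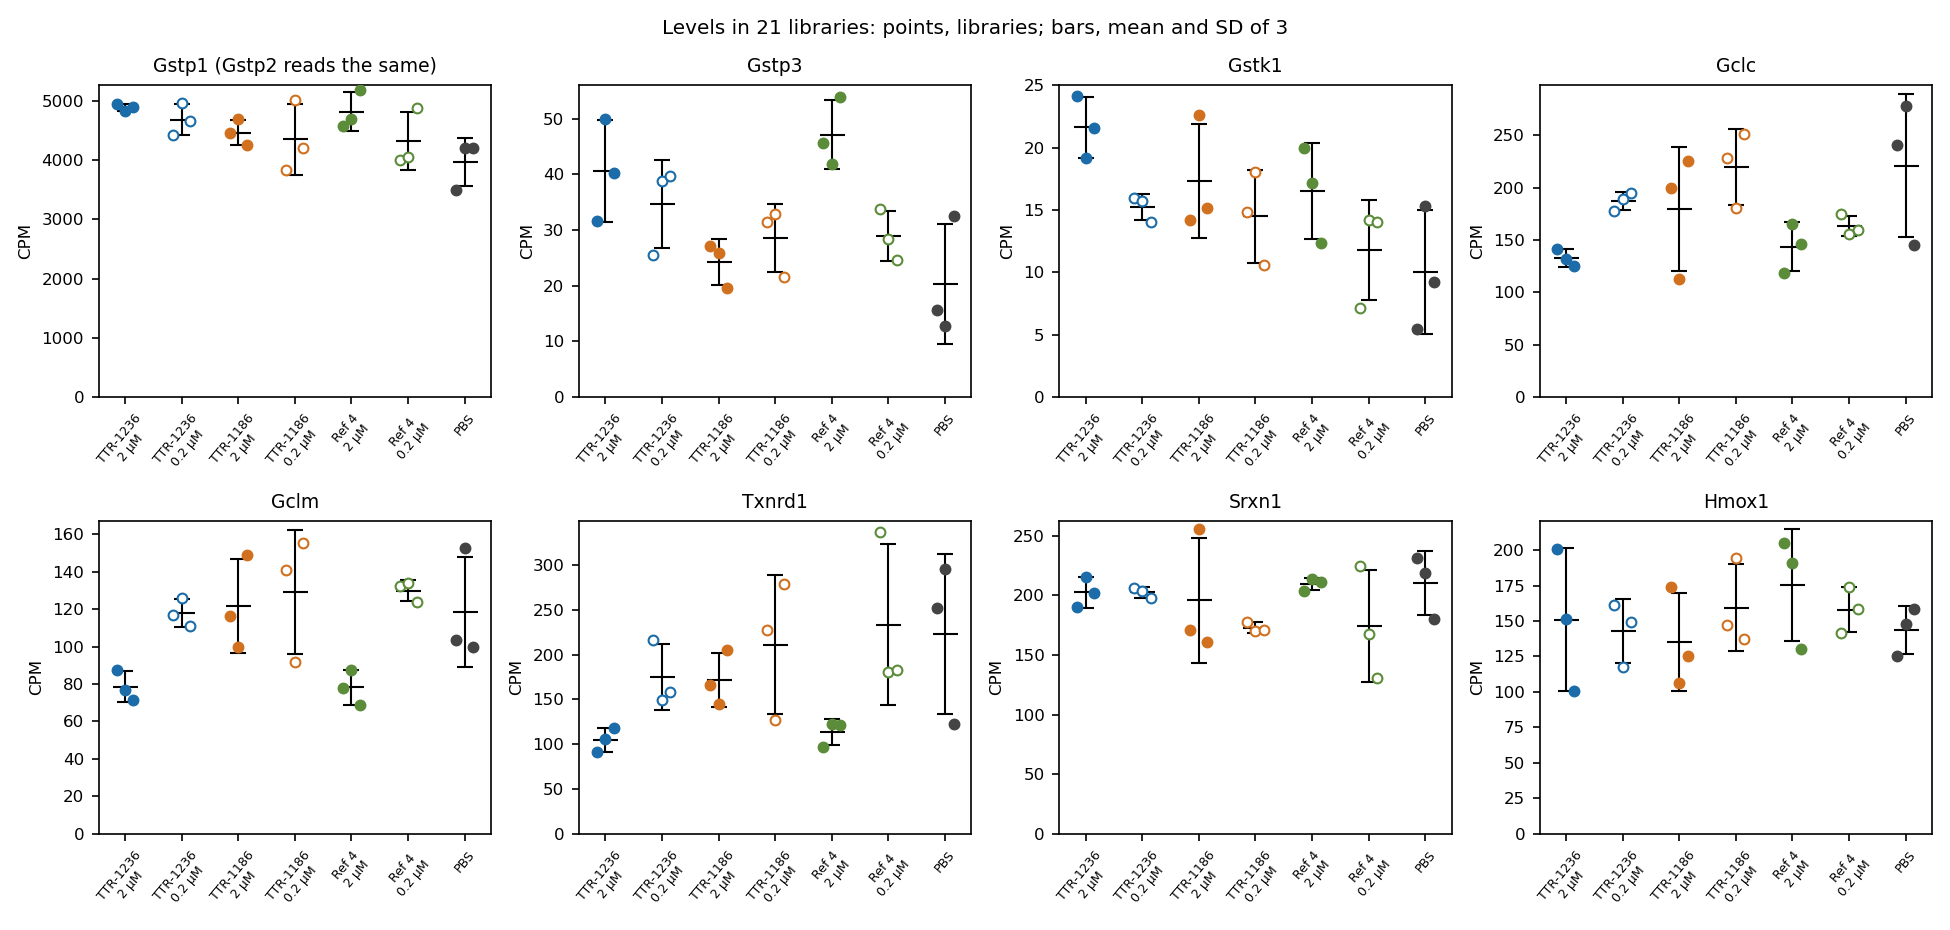
Level in CPM (vertical axes, each from 0) of the 8 signals in the 7 groups. Points are libraries (filled for 2 µM and PBS, open for 0.2 µM) and bars are the mean and SD of 3; Gclm and Txnrd1 are lowest with TTR-1236 and Reference 4 at 2 µM, and 1 of the 3 PBS points lies apart for Gstp3, Gclc and Txnrd1.

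Against PBS, the glutathione S-transferases that passed were Gstp3 and Gstk1. In TTR-1236 at 2 µM, 2 of 8 signals rose and 0 fell, where 6.33% of all genes passed, 1.44% as rises and 4.89% as falls. In Reference 4 at 2 µM, 1 of 8 rose and 0 fell, where 2.25% of all genes passed, 0.59% as rises and 1.66% as falls. In the other 4 groups 0 of 8 passed: 0.0518% of all genes passed in TTR-1186 at 2 µM (0.0104% higher and 0.0414% lower), 0.0207% in TTR-1236 at 0.2 µM, 0.0311% in TTR-1186 at 0.2 µM and 0.166% in Reference 4 at 0.2 µM. Together 3 of 48 tests against PBS passed with limma, 16 had an unadjusted p under 0.05, and edgeR on the recovered reads made 4 calls. The same PBS libraries serve all 6 comparisons.

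Gstp3 had 31.7, 49.9 and 40.3 CPM in TTR-1236 at 2 µM, against 15.6, 12.7 and 32.5 CPM in PBS. It had 45.5, 41.8 and 53.9 CPM in Reference 4 at 2 µM. The Reference 4 libraries all lay above the PBS libraries, whereas those of TTR-1236 overlapped the third PBS library. The log2 fold change was 1.28 with an SE of 0.28 (adjusted p = 0.0220, limma) in Reference 4 at 2 µM and 1.05 with an SE of 0.28 (adjusted p = 0.0297, limma) in TTR-1236 at 2 µM. In TTR-1186 at 2 µM Gstp3 had 27.2, 25.9 and 19.6 CPM, within the range of PBS, with a log2 fold change of 0.34 (95% interval -0.24 to 0.92). At 0.2 µM it had 25.5, 38.8 and 39.7 CPM with TTR-1236, 31.4, 32.8 and 21.5 CPM with TTR-1186, and 33.7, 28.5 and 24.7 CPM with Reference 4. All 9 lay above PBS replicates 1 and 2, and PBS replicate 3 fell among them. Their log2 fold changes against PBS were 0.83, 0.56 and 0.59, none of which passed.

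Gstk1 had 24.1, 19.2 and 21.6 CPM in TTR-1236 at 2 µM, against 5.45, 15.3 and 9.26 CPM in PBS. All 3 treated libraries lay above the PBS libraries, and the log2 fold change was 1.14 with an SE of 0.32 (adjusted p = 0.0389, limma). Its PBS libraries were the most spread of any group for this gene, with an SD of 4.99 CPM. In the other treated groups Gstk1 averaged between 11.8 and 17.3 CPM and overlapped PBS, with log2 fold changes of 0.26 to 0.81 that did not pass.

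The pi-class signal itself was high everywhere. Gstp1 had 4949.6, 4829 and 4903 CPM in TTR-1236 at 2 µM and 4569, 4695 and 5193 CPM in Reference 4 at 2 µM, against 3498, 4203 and 4204 CPM in PBS. In TTR-1186 at 2 µM it had 4453, 4689 and 4257 CPM. The libraries of all 3 agents at 2 µM lay above every PBS library, yet the differences were small: the log2 fold changes were 0.31, 0.28 and 0.17, with an SE of 0.11 each, and adjusted p values of 0.103, 0.158 and 0.638 (limma). With Gstp1 and Gstp2 added before the log, the adjusted p for TTR-1236 at 2 µM was 0.0968.

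The calls of Gstp3 and Gstk1 rest on few libraries. With TTR-1236 at 2 µM, the Gstp3 call was lost without replicate 2 or 3 of that group (adjusted p = 0.110 and 0.123) and without PBS replicate 1 or 2 (0.147 and 0.164). With Reference 4 at 2 µM, it was lost without replicate 1 or 3 of that group (0.0516 and 0.105) and without PBS replicate 1 or 2 (0.123 and 0.122). The Gstk1 call was lost without any 1 library of TTR-1236 at 2 µM (0.0763, 0.0732 and 0.131) or PBS replicate 1 (0.227), and, through the shared estimate of the spread, without TTR-1236 at 0.2 µM replicate 3 (0.0507) or Reference 4 at 2 µM replicate 2 (0.0501). All 3 calls were also lost in fits of only the 6 libraries compared (0.168, 0.0920 and 0.171, in the order given here, limma).

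The 2 subunits of the glutathione synthesis enzyme had lower means at 2 µM of TTR-1236 and Reference 4 than in PBS, but neither passed. Gclc had 142, 132 and 125 CPM in TTR-1236 at 2 µM and 119, 165 and 147 CPM in Reference 4 at 2 µM, against 241, 278 and 145 CPM in PBS. Gclm had 87.5, 76.8 and 71.3 CPM in TTR-1236 at 2 µM and 78.1, 87.6 and 68.9 CPM in Reference 4 at 2 µM, against 103, 153 and 99.8 CPM in PBS. All 6 treated Gclm libraries lay below all PBS libraries, and for Gclc those of TTR-1236 did. The log2 fold changes in TTR-1236 at 2 µM were -0.68 with an SE of 0.22 for Gclc (adjusted p = 0.0676, limma) and -0.57 with an SE of 0.20 for Gclm (adjusted p = 0.0803, limma). In Reference 4 at 2 µM they were -0.58 (adjusted p = 0.142) and -0.57 (adjusted p = 0.0992). In TTR-1186 at 2 µM Gclc had 199.9, 113 and 226 CPM, overlapping PBS, with a log2 fold change of -0.31 (95% interval -0.77 to 0.15). There the modifier subunit was at the level of PBS, with 116, 99.9 and 149 CPM and a log2 fold change of 0.04 (95% interval -0.36 to 0.45).

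The pattern of thioredoxin reductase resembled that of the ligase subunits. Txnrd1 had 90.9, 106 and 118 CPM in TTR-1236 at 2 µM and 96.4, 122.7 and 122 CPM in Reference 4 at 2 µM, against 252, 295 and 123.0 CPM in PBS. Each of these 6 treated libraries was below the lowest PBS library, 3 of them by less than 6 CPM, and all were far below the other two. The log2 fold change was -0.997 with an SE of 0.30 in TTR-1236 at 2 µM (adjusted p = 0.0545, limma) and -0.88 in Reference 4 at 2 µM (adjusted p = 0.108). edgeR on the recovered reads called the first of these, at an adjusted p of 0.0322. In TTR-1186 at 2 µM Txnrd1 had 166, 145 and 205 CPM, inside the range of PBS.

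The calls of these 3 genes and of Gstp3 changed with 1 PBS library. PBS replicate 3 had the lowest Gclc, Gclm and Txnrd1 and the highest Gstp3 of the PBS libraries, and its share of mitochondrial ribosomal RNA, described further on, was also the lowest of them. Without it, limma made 10 calls against PBS in place of 3. The share of all genes that passed in that fit is not given here, so this count is not set against genes at large. Gclc, Gclm and Txnrd1 then fell in TTR-1236 at 2 µM, with log2 fold changes of -0.96, -0.68 and -1.38 (adjusted p = 0.00376, 0.0312 and 0.00232). They fell in Reference 4 at 2 µM as well, with -0.86, -0.68 and -1.26 (adjusted p = 0.0111, 0.0350 and 0.00586), and Gstp3 rose in TTR-1236 at 0.2 µM with 1.21 (adjusted p = 0.0354).

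Heme oxygenase and sulfiredoxin passed in none of the 20 contrasts with limma. Hmox1 lay between 101 and 205 CPM in the treated libraries, against 125, 148 and 158 CPM in PBS, and its 6 log2 fold changes against PBS ran between -0.11 and 0.26. The libraries of TTR-1236 at 2 µM alone covered 101 to 201 CPM. Srxn1 lay between 131 and 256 CPM in the treated libraries, against 231, 219 and 181 CPM in PBS, with log2 fold changes of -0.30 to 0.00. For Hmox1 in TTR-1236 at 2 µM the 95% interval of the log2 fold change was -0.45 to 0.49, and for Srxn1 it was -0.41 to 0.31.

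**Figure D2:**
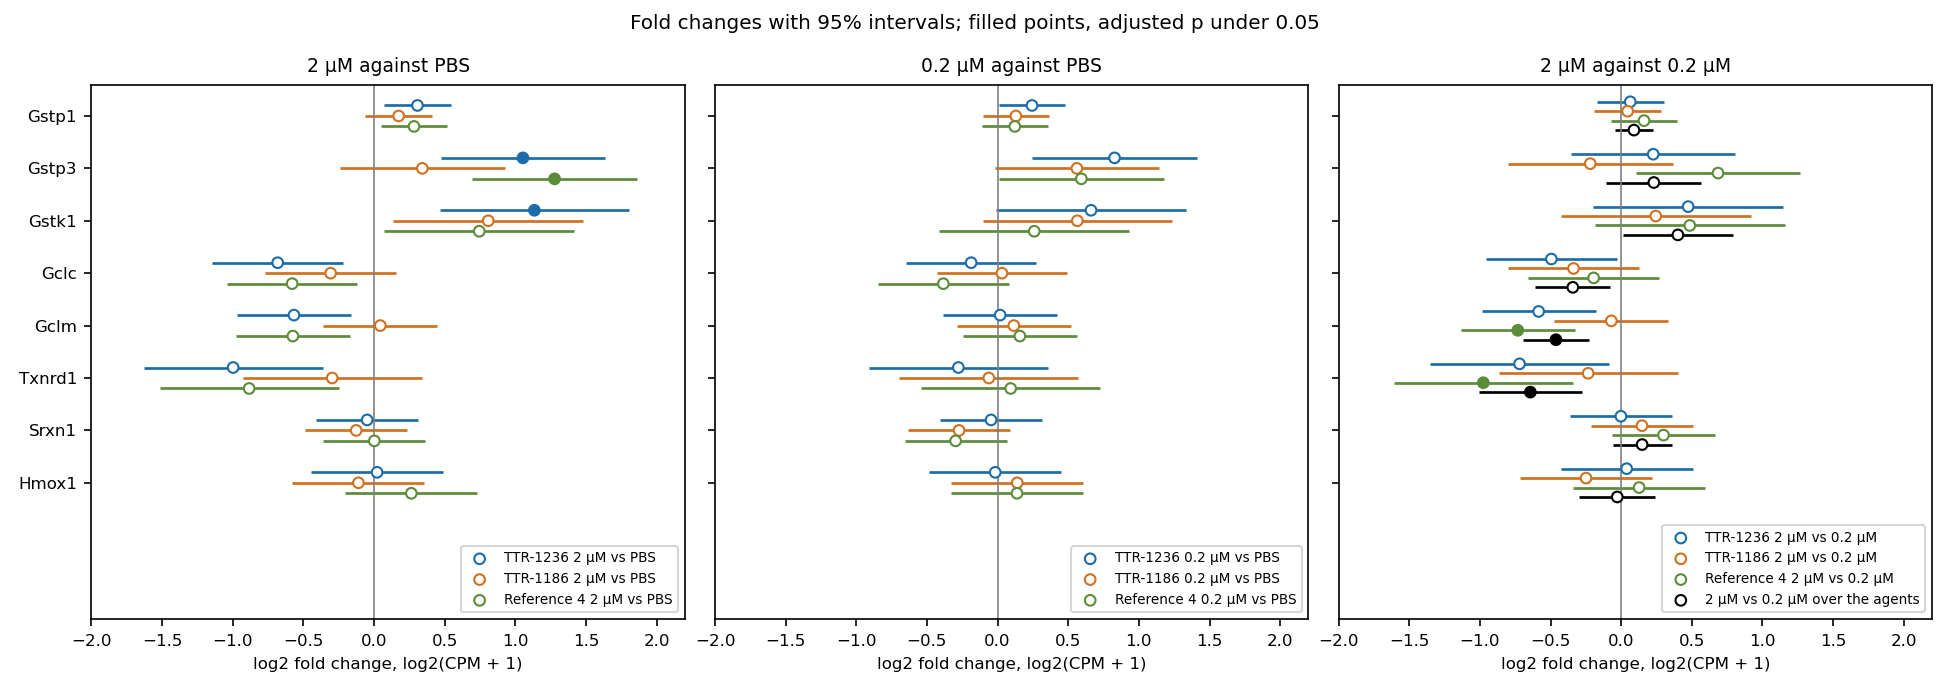
Log2 fold change (horizontal axis) of the 8 signals with its 95% interval, for the 3 agents at 2 µM against PBS, at 0.2 µM against PBS, and at 2 µM against 0.2 µM. Filled points have an adjusted p under 0.05: Gstp3 and Gstk1 on the left, none in the middle, and Gclm and Txnrd1 on the right, where black is the mean of the 3 agents.

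Over all 6 treated groups together against PBS, 0 of 8 signals passed with limma or with edgeR, where 0.0725% of all genes passed. Unadjusted, 3 had a p under 0.05: Gstp3 with a log2 fold change of 0.78 (SE 0.22, adjusted p = 0.114, limma), Gstk1 with 0.70 (SE 0.25, adjusted p = 0.238, limma) and Gstp1 with 0.21 (SE 0.09, adjusted p = 0.298, limma). The remaining 5 had larger p values. Without PBS replicate 3, 3 signals passed: Gstp3 rose by 1.16 (adjusted p = 0.00442, limma), and Gclc and Txnrd1 fell by 0.63 and 0.79 (adjusted p = 0.0330 and 0.0425, limma) on the log2 scale. The share of all genes that passed in that fit is not given here either.

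The difference between doses is taken among treated libraries, while PBS libraries enter only the estimate of the spread. Over the 3 agents, Gclm and Txnrd1 fell at 2 µM relative to 0.2 µM, 2 of 8 signals, and 0 rose. Of all genes 18.9% passed here, with 10.1% of all genes as falls and 8.80% as rises. A count of 2 among 8 is near that of genes at large. Gclm averaged 92.8 CPM at 2 µM and 126 CPM at 0.2 µM, a log2 fold change of -0.46 with an SE of 0.11 (adjusted p = 0.00697, limma). Txnrd1 averaged 130.2 CPM at 2 µM and 206 CPM at 0.2 µM, a log2 fold change of -0.64 with an SE of 0.18 (adjusted p = 0.0150, limma). Both passed in all 8 alternative fits and in all 18 fits that left out 1 treated library. Gclc had -0.34 with an SE of 0.13 and did not pass (adjusted p = 0.0650, limma), though edgeR called it at 0.04998 and leaving out PBS replicate 3 gave 0.0284 through the spread alone.

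Within agents, Gclm and Txnrd1 passed for Reference 4. Gclm had 78.1, 87.6 and 68.9 CPM at 2 µM, against 132, 134 and 124 CPM at 0.2 µM, with a log2 fold change of -0.73 and an SE of 0.20 (adjusted p = 0.0182, limma). Txnrd1 had 96.4, 123 and 122 CPM at 2 µM, against 337, 181 and 183 CPM at 0.2 µM, with a log2 fold change of -0.98 and an SE of 0.30 (adjusted p = 0.0389, limma). In both genes the doses did not overlap, and for Txnrd1 1 library at 0.2 µM was far above the rest. Here 2 of 8 fell and 0 rose, against 12.8% of all genes called, 6.78% as rises and 6.05% as falls. Gclc had 119, 165 and 147 CPM at 2 µM, against 174, 156 and 159.9 CPM at 0.2 µM, and overlapped (-0.20, adjusted p = 0.613, limma). Gstp3 went the other way without passing, with 45.5, 41.8 and 53.9 CPM at 2 µM, against 33.7, 28.5 and 24.7 CPM at 0.2 µM. Its doses did not overlap, and its log2 fold change was 0.69 (SE 0.28, adjusted p = 0.108, limma). It was called in fits of only the libraries compared (0.0368), without PBS replicate 3 (0.0486), and without that library and TTR-1186 at 2 µM replicate 2 (0.0425). The Gclm call was lost without replicate 1 or 2 at 0.2 µM (adjusted p = 0.0524 and 0.0591) or replicate 3 at 2 µM (0.107), and the Txnrd1 call was lost without replicate 1 or 2 at 0.2 µM (0.179 and 0.0556) or any 1 library at 2 µM (0.108, 0.0770 and 0.108).

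For TTR-1236, 0 of 8 signals passed between doses with limma, where 0.135% of all genes passed, and edgeR called 0; 3 had an unadjusted p under 0.05, namely Gclm, Txnrd1 and Gclc, and their doses did not overlap. Gclm had 87.5, 76.8 and 71.3 CPM at 2 µM, against 117, 126 and 111 CPM at 0.2 µM (log2 fold change -0.58, SE 0.20, adjusted p = 0.214, limma). Txnrd1 had 90.9, 106 and 118 CPM at 2 µM, against 217, 149.7 and 158 CPM at 0.2 µM (-0.72, SE 0.30, adjusted p = 0.353). Gclc had 142, 132 and 125 CPM at 2 µM, against 178, 189 and 194 CPM at 0.2 µM (-0.49, SE 0.22, adjusted p = 0.388). For TTR-1186, 0 of 8 passed with limma or edgeR, 0 at an unadjusted p under 0.05, and 0% of all genes passed. Its Gclm libraries held 116, 99.9 and 149 CPM at 2 µM, against 141, 91.7 and 155 CPM at 0.2 µM, and overlapped (log2 fold change -0.07, 95% interval -0.47 to 0.33). Txnrd1 had 166, 145 and 205 CPM at 2 µM, against 228, 127 and 279 CPM at 0.2 µM, and Gclc had 199.9, 113 and 226 CPM, against 228, 180.2 and 251 CPM. These overlapped too, with log2 fold changes of -0.23 (95% interval -0.87 to 0.40) and -0.34 (95% interval -0.80 to 0.12).

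Whether the dose difference itself differed between agents was tested as an interaction, and 0 of 24 tests passed with limma or with edgeR, 2 of them having an unadjusted p under 0.05. These were Gclm, whose dose difference was higher by 0.66 in TTR-1186 than in Reference 4 (95% interval 0.09 to 1.23, adjusted p = 0.507, limma), and Gstp3, lower by 0.90 on the log2 scale (95% interval of the difference -1.73 to -0.08, adjusted p = 0.526, limma). The share of all genes that passed was 0% in each of the 3 interactions.

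Agents were also set against each other at the same dose, in 6 comparisons with 48 tests. With limma 0 passed, with edgeR 0, and 5 had an unadjusted p under 0.05, all at 2 µM and all involving TTR-1186. At 2 µM Gclm was at 121.8 CPM in TTR-1186 and 78.2 CPM in Reference 4, a log2 fold change of 0.62 (95% interval 0.22 to 1.02, adjusted p = 0.185, limma). Gstp3 was at 24.2 CPM in TTR-1186 and 47.1 CPM in Reference 4, a log2 fold change of -0.94 (95% interval -1.52 to -0.35, adjusted p = 0.174, limma). TTR-1236 set against TTR-1186 had -0.61 for Gclm (adjusted p = 0.130), 0.71 for Gstp3 (adjusted p = 0.225) and -0.70 for Txnrd1 (adjusted p = 0.269). Of all genes, 0.373% passed with TTR-1186 set against Reference 4 at 2 µM (0.228% higher, 0.145% lower). With TTR-1236 set against TTR-1186 it was 0.342% (0.0932% higher, 0.249% lower), and in the other 4 comparisons 0%. Between TTR-1236 and Reference 4 at 2 µM the groups overlapped for all 8 signals. The log2 fold changes there ran between -0.24 for Hmox1 (95% interval -0.71 to 0.23) and 0.39 for Gstk1 (95% interval -0.28 to 1.06), with 0.01 for Gclm (95% interval -0.40 to 0.41) and -0.22 for Gstp3 (95% interval -0.81 to 0.36).

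Leaving out TTR-1186 at 2 µM replicate 2 together with PBS replicate 3 turned 4 of these into calls. The shares of all genes above are from the fit of all libraries. Those of the fit without this pair are not given here, so the 4 calls are not set against genes at large. Gclm was then higher in TTR-1186 than in Reference 4 by 0.75 (adjusted p = 0.0497), Gstp3 was lower with -0.99 (adjusted p = 0.0448), and Gclm and Gclc were lower in TTR-1236 than in TTR-1186 with -0.74 and -0.68 (adjusted p = 0.0314 and 0.0145, limma).

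The wider pathway was followed in 5 lists holding 80 measured genes, Txn1 and Prdx1 being in 2 of them. Over the 3 agents at 2 µM against 0.2 µM, 12 of the 80 rose and 8 fell, 25.0% beside 18.9% of all genes. Of these 20 genes, 7 passed in every alternative and in every fit that left out 1 treated library: Abcc2, Gsr and Sesn3, which fell, and Fth1, Ftl1, Txn1 and Hagh, which rose.

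Among NRF2 and its regulators, 4 of 9 fell at 2 µM against 0.2 µM and 0 rose, where 10.1% of all genes fell, with a list median of -0.20 beside -0.01 for all genes. Nfe2l2, which encodes NRF2 itself, averaged 81.8 CPM at 2 µM and 131 CPM at 0.2 µM (log2 fold change -0.73, SE 0.23, adjusted p = 0.0295, limma). Its competitor Bach1 had -0.65 (adjusted p = 0.0295), the small MAF gene Mafk -0.40 (adjusted p = 0.0368), and Sqstm1, whose protein p62 draws KEAP1 into autophagy, -0.22 (adjusted p = 0.0492, limma). These calls depended on single libraries: of the 18 fits that left out 1 treated library, Bach1 passed in 12, Nfe2l2 in 11, Mafk in 7 and Sqstm1 in 3. Keap1 had -0.09 and did not pass (adjusted p = 0.619). Against PBS 0 of 9 passed in any group with limma; of these 54 tests 7 had an unadjusted p under 0.05 and edgeR called 1. Nfe2l2 had 80.2, 63.8 and 42.3 CPM in TTR-1236 at 2 µM, against 220.0, 204 and 68.8 CPM in PBS (log2 fold change -1.26, adjusted p = 0.0591, limma), again with PBS replicate 3 far below the other two.

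Of the other NRF2 targets, 5 of 19 rose at 2 µM against 0.2 µM and 1 fell, with a list median of 0.05. Of all genes, 8.80% rose and 10.1% fell there. Abcc2, the canalicular pump that exports glutathione conjugates into bile, averaged 68.9 CPM at 2 µM and 134 CPM at 0.2 µM (log2 fold change -0.95, SE 0.15, adjusted p = 0.000474, limma). The ferritin subunits rose, Fth1 with 0.40 (adjusted p = 0.00241) and Ftl1 with 0.26 (adjusted p = 0.0130), and so did thioredoxin, Txn1, with 0.58 (adjusted p = 0.00658), Taldo1 and Prdx1. In TTR-1236 at 2 µM against PBS, Ftl1 rose and Abcc2 and Tkt, a pentose phosphate enzyme, fell (1 and 2 of 19). Ftl1 had 4703, 5240.5 and 5449 CPM there, against 2980.5, 3175 and 3925 CPM in PBS, with a log2 fold change of 0.62 (adjusted p = 0.00814, limma). Abcc2 had 61.4, 68.7 and 49.5 CPM, against 138, 126 and 78.5 CPM in PBS, with -0.89 (adjusted p = 0.0437, limma). In neither gene did the groups overlap. In Reference 4 at 2 µM, Ftl1 rose with 0.55 (adjusted p = 0.0220, limma), 1 of 19. Over the 5 lists, 4 of 80 genes passed against PBS with TTR-1236 at 2 µM (5.0%) and 2 of 80 with Reference 4 at 2 µM (2.5%), shares near those of all genes, and 0 of these 6 calls held in every alternative and every fit that left out 1 library.

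**Figure D3:**
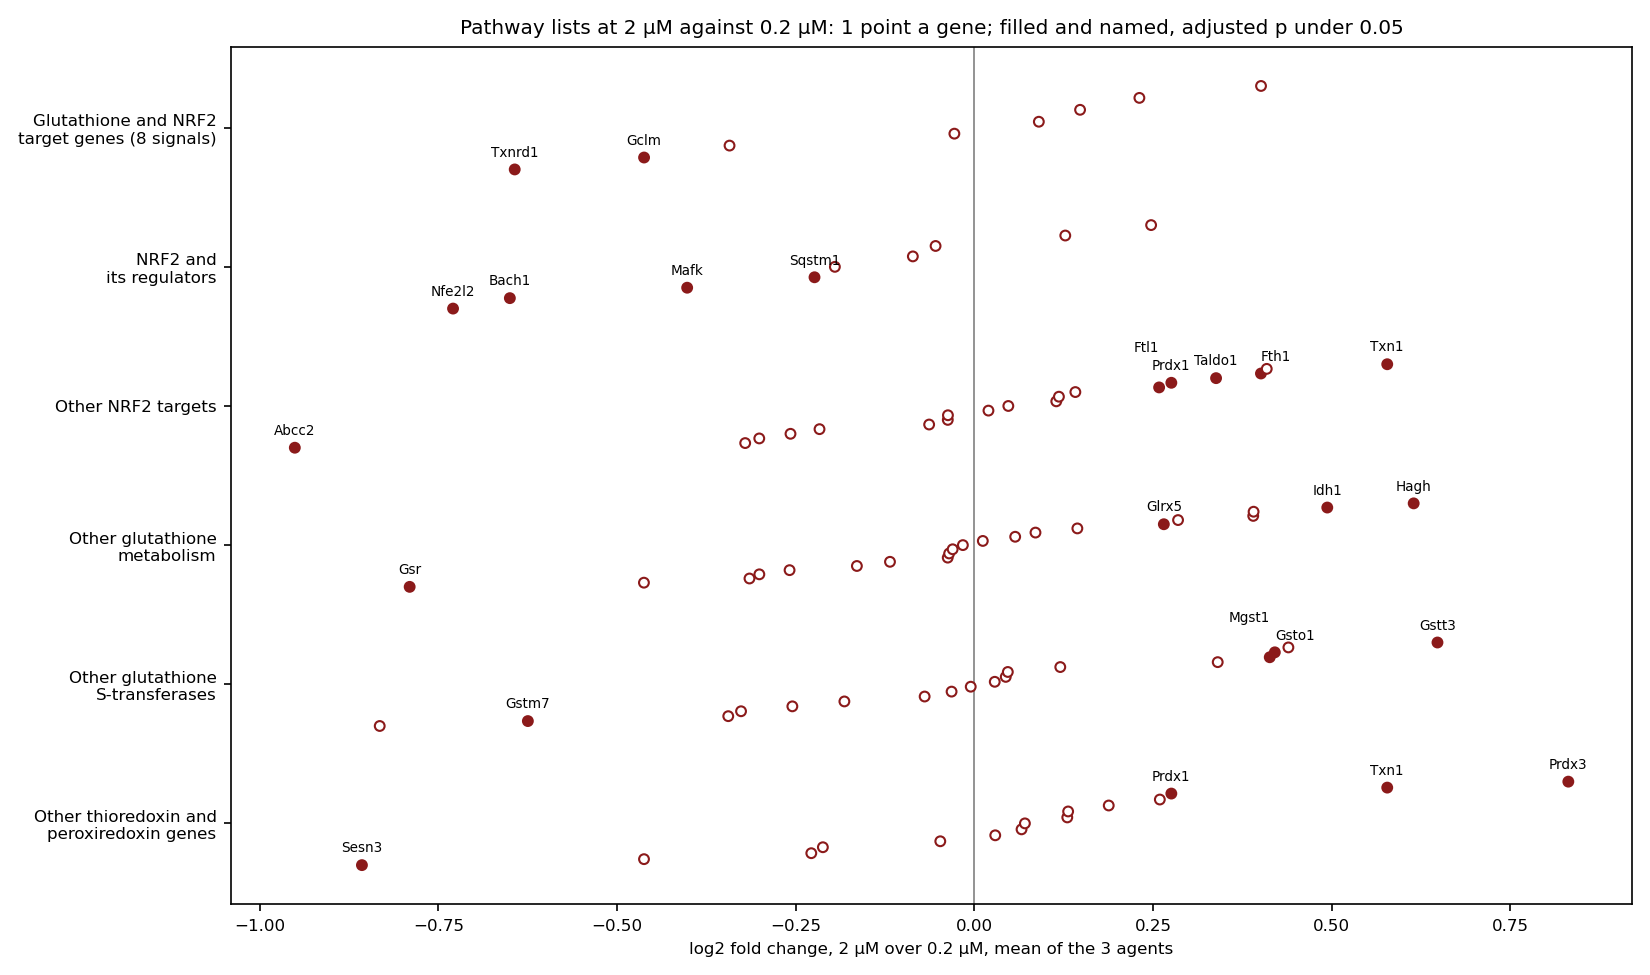
Log2 fold change at 2 µM over 0.2 µM, as the mean of the 3 agents (horizontal axis), with 1 point for each gene of the 8 signals and the 5 lists. Filled, named points have an adjusted p under 0.05; those of NRF2 and its regulators all lie left of 0 and the other lists have named genes on both sides.

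In glutathione metabolism 3 of 21 rose with dose and 1 fell, with a list median of -0.02. For each list count with dose in this paragraph, the shares of all genes were 8.80% as rises and 10.1% as falls. In total 18.9% of all genes passed, so the count in glutathione metabolism is near that of genes at large. Gsr, glutathione reductase, averaged 17.9 CPM at 2 µM and 30.8 CPM at 0.2 µM (log2 fold change -0.79, SE 0.22, adjusted p = 0.0156, limma). Hagh, which hydrolyses the glutathione thioester formed from methylglyoxal, rose with 0.61 (adjusted p = 0.00833), as did Idh1 and the glutaredoxin Glrx5. Against PBS, Gpx7 fell with Reference 4 at 2 µM (log2 fold change -1.31, adjusted p = 0.0495), 1 of 21, and edgeR did not call it. Among the other glutathione S-transferases 3 of 18 rose with dose (Mgst1, Gsto1 and Gstt3, with 0.41, 0.42 and 0.65) and Gstm7 fell with -0.62. Gsto1 also rose in TTR-1236 at 2 µM against PBS, with 0.73 (adjusted p = 0.0450, limma). In the thioredoxin and peroxiredoxin list 3 of 15 rose (Txn1, Prdx1 and Prdx3) and Sesn3, a stress-induced sestrin, fell with -0.86 (adjusted p = 0.0140, limma). Over all 5 lists, other calls with dose that rested on single libraries were Prdx1, which passed in 9 of the 18 fits without 1 treated library, Idh1 in 6, Gstm7 and Prdx3 in 5 each, and Glrx5 in 3. Gstt3 passed in 15 of these fits, Mgst1 in 16, and Gsto1 and Taldo1 in 17 each.

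Within Reference 4, 10 of the 80 genes passed between doses, 12.5% beside 12.8% of all genes, so the lists changed about as often as genes at large. Of the 10, 9 rose and 1 fell, where over all genes 6.78% rose and 6.05% fell. Txn1 had 197, 281 and 295 CPM at 2 µM, against 109, 77.5 and 127 CPM at 0.2 µM, with the smallest adjusted p of these genes (log2 fold change 1.299, SE 0.24, adjusted p = 0.00270, limma). It was the 1 call of these 10 that held in every alternative and in all 6 fits that left out 1 of these libraries. In Reference 4, then, the reductase Txnrd1 fell while its substrate thioredoxin rose. Between doses, 0 of the 80 passed with TTR-1236 (12 at an unadjusted p under 0.05) and 0 with TTR-1186 (17 unadjusted). Between agents 0 of the 80 passed at either dose, with 3 to 16 unadjusted in the 6 comparisons, and edgeR made 0 calls in any of these.

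The share of CPM taken by the mitochondrial ribosomal RNAs mt-Rnr1 and mt-Rnr2 was on average lower at 2 µM than at 0.2 µM of each agent. It averaged 0.412% in TTR-1236 at 2 µM, 1.64% in TTR-1236 at 0.2 µM, 1.59% in TTR-1186 at 2 µM, 2.78% in TTR-1186 at 0.2 µM, 0.767% in Reference 4 at 2 µM, 2.70% in Reference 4 at 0.2 µM and 2.25% in PBS. The PBS libraries held 3.26%, 2.70% and 0.797%, the last being replicate 3. Within groups, the library with the lowest share was also the one with the lowest Gclm in 6 of 7 groups, Gclc, Txnrd1 and Hmox1 in 4 each, Srxn1 in 3, Gstk1 and Gstp3 in 1 each and Gstp1 in 0. It had the highest Gstp1 in 6 groups, Gstp3 in 3, Gstk1 and Hmox1 in 2 each, Gclm, Txnrd1 and Srxn1 in 1 each and Gclc in 0. Among pathway genes it had the lowest Abcc2 in 6, Nfe2l2 in 5 and Gsr in 4, and the highest Ftl1 in 6. In a group of 3, a library has a 1 in 3 chance of such a match without any link, so counts of 3 or 4 groups say little. The Csf1r and Cd68 sum was 135 CPM in TTR-1236 at 2 µM and 144 CPM in Reference 4 at 2 µM, against 91.1 CPM in PBS, and the cholangiocyte markers Krt19 and Sox9 summed to 45.2 and 46.1 CPM in those groups, against 34.6 CPM in PBS. The endothelial markers Stab1 and Stab2 summed to 16.3 and 15.4 CPM in those groups and 9.62 CPM in TTR-1186 at 2 µM, against 18.5 to 19.6 CPM in the 3 PBS libraries. The stellate cell markers Dcn and Acta2 summed to 23.1 and 19.7 CPM in those groups and 39.5 CPM in TTR-1186 at 2 µM, against 17.0 CPM in PBS. At 0.2 µM of TTR-1236, TTR-1186 and Reference 4 the stellate sum was 27.1, 33.2 and 28.2 CPM. In the same order, the Csf1r and Cd68 sum was 116, 87.7 and 123 CPM. The cholangiocyte sum was 32.8, 38.9 and 34.9 CPM and the endothelial sum 21.1, 14.7 and 19.5 CPM. The part of these shares and markers in the results above was not tested.

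**Figure D4:**
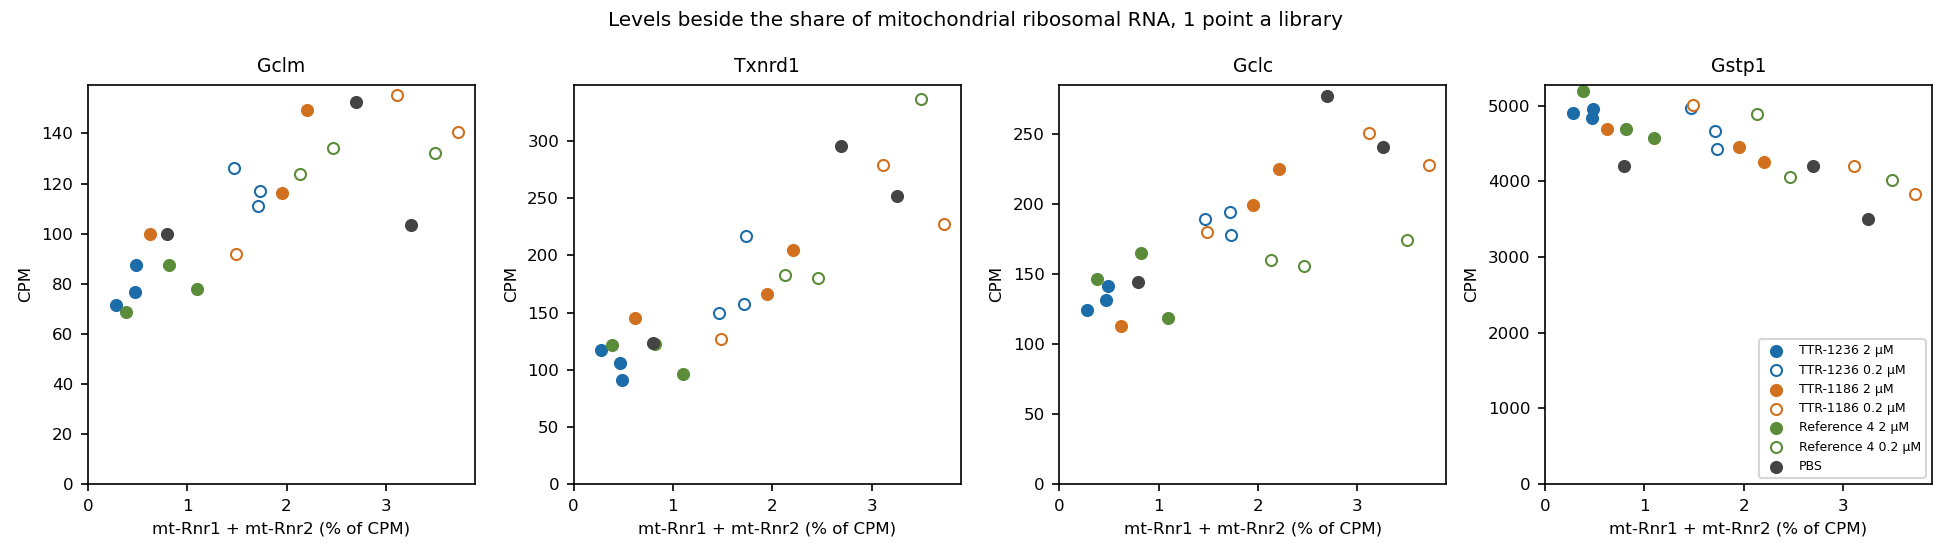
Level in CPM (vertical axes, from 0) of Gclm, Txnrd1, Gclc and Gstp1 against the share of CPM in mt-Rnr1 and mt-Rnr2 (horizontal axes, %), with 1 point for each of the 21 libraries; filled points are 2 µM and PBS, open points 0.2 µM. The 3 TTR-1236 libraries at 2 µM, all under 0.5%, are among the lowest for Gclm and Txnrd1, and the PBS library at 0.797% sits near the 2 µM libraries rather than the other PBS libraries for Txnrd1 and Gclc.

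As a description of which genes ran alongside, Pearson's r of log2(CPM + 1) over the 21 libraries was computed for some members. The values of 1 library share its depth and its ribosomal RNA share. Each member was set against the other protein-coding genes whose symbols do not begin with Gm, 8447 or 8448 genes. For Gstp1 the closest were Cox6a1 (r = 0.885), Polr2j (0.859) and Ftl1 (0.835). Gclc ran closest to Nsd3 (0.904), Utp14b (0.898) and Asnsd1 (0.893). For Gstk1 they were Uqcr10 (0.852), Lyrm9 (0.793) and Gcdh (0.783), and for Hmox1 Ncdn (0.812), Rhod (0.798) and Serpina1b (0.790).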

How the data were processed

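The 21 libraries (QuantSeq, 3′ ends) fall into 7 groups of 3 by their treatment label. cutadapt 1.15, HISAT2 2.1.0 and featureCounts with mm10 are named, per the submitters' processing notes; no source used here gives their settings, the strand or the annotation release. Each deposited file holds CPM that the authors scaled to 1000000 over 9657 genes. Dividing by the smallest step gave whole numbers of reads in every library (100% within 0.001 reads), 14158740 to 37410773 in all. Gstk1 and Gstp3 had the fewest reads of the members, at least 78 and 224 in a library. Their SD within a group reached 49.8% and 52.7% of the mean. No pair of replicates matched within sampling noise (chi-square over degrees of freedom at least 25.1).

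Identifiers were matched to GENCODE vM21 (GRCm38) symbols, 9652 of 9657. limma 3.58.1 in R 4.3.3 took log2(CPM + 1) of all 21 libraries, fitted 1 mean per group and used a trended, robust variance prior, with Benjamini-Hochberg adjustment over all genes and a threshold of 0.05. The added 1 understates changes of low genes. No gene was filtered out. The step was tested on simulated data. Alternatives were edgeR 4.0.16 with TMM factors on the recovered reads (662 genes called for TTR-1236 at 2 µM against PBS, where limma called 611), limma after TMM scaling, 0.5 or 5 as the pseudocount, genes of at least 10 CPM on average, only the libraries compared, a block for the replicate number, PBS replicate 3 and TTR-1186 2 µM replicate 2 left out together, and each library left out in turn.

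The members, lists, tests and the pair of libraries left out were chosen with earlier results of these data known. Of each list, up to 4 called genes by smallest p were named, otherwise up to 2; Taldo1 and Keap1 were named beyond that rule, after their values were seen. The most alike genes were the 3 with the highest r among protein-coding genes, leaving out symbols that begin with Gm.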

Additional observations from a re-analysis of the deposited data

Results flagged for a closer look

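Gclm and Txnrd1 are the members whose effect differed between doses by the test of the difference itself. Over the 3 agents, Gclm had a log2 fold change of -0.46 and Txnrd1 of -0.64 at 2 µM against 0.2 µM (adjusted p = 0.00697 and 0.0150, limma). Within Reference 4 they had -0.73 and -0.98 (adjusted p = 0.0182 and 0.0389, limma). The share of mitochondrial ribosomal RNA differed between the same groups, 0.767% in Reference 4 at 2 µM and 2.70% at 0.2 µM, and its part in these differences was not tested. No test for a single outlying library was made in groups of 3.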

How the results depend on the processing

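Against PBS, 3 member calls became 0 in fits of only the libraries compared, 13 with PBS replicate 3 and TTR-1186 2 µM replicate 2 left out, and 0 to 10 when 1 library was left out, with 0 without PBS replicate 1, 1 without PBS replicate 2 and 10 without PBS replicate 3. Without TTR-1236 2 µM replicate 2 or 3 the count was 1, and without TTR-1186 0.2 µM replicate 2 it was 5. With the pair left out, calls between agents went to 4 in place of 0 and those of all treated groups against PBS to 3 in place of 0 (0 to 3 with 1 library left out, 3 being without PBS replicate 3). Between doses within agents, 2 calls became 0 to 3 with 1 library left out (3 being without PBS replicate 3, where Gstp3 in Reference 4 was added) and 3 both in fits of only the libraries compared and with the pair left out, while over the agents there were 2 or 3 calls in every fit. The cause of these shifts was not tested. The shares of all genes that passed in these other fits are not given here, so the counts are not set against genes at large. In 136 member results under 29 settings, 3868 of 3936 values kept their direction where called and their side of the threshold, 43 gained a call, 25 lost one and 0 reversed. The calls among the 136 were 3 against PBS, 2 between doses within agents and 2 over the agents. Most kept values are therefore uncalled results that stayed uncalled. Many settings also left out a library outside the contrast, so this count does not measure how stable the calls are. For the 36 calls of other genes of the lists, 801 of 1041 values kept the call, 240 lost it and 0 reversed. Correlations of deviations between same-numbered libraries ran from -0.39 to 0.29 (median 0.02, 63 pairs, 18 of them over 0.1). Between different-numbered libraries they ran from -0.37 to 0.51 (median -0.02, 126 pairs, 35 of them over 0.1). No deviation shared by number was seen, which cannot show whether a number stands for a shared animal or preparation. With the replicate number as a block the counts were 3 against PBS, 0 between agents, 2 between doses within agents, 2 over the agents and 0 for all treated groups. TMM scaling moved the median over all genes most for the dose difference of TTR-1236 minus that of TTR-1186, where the median was -0.01 with edgeR and TMM factors and -0.11 in CPM. With 3 libraries a group, an adjusted p that misses 0.05 leaves the changes printed with their intervals possible.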
